A study of Mus musculus with 8 samples.

Results

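The genes described here handle iron in the heart and build iron-sulfur clusters from it. They were chosen by name, with earlier results of these data known: Tfrc, Slc40a1, Fth1, Ftl1, Ireb2, Aco1, Nfs1, Iscu and Fdx1. These are 9 of the 55471 genes in the count files, and all 9 were among the 15084 genes with enough reads to be tested. RNA was sequenced from a small piece of heart of 4 wild-type (WT) mice and 4 TAZG197V mice, 14 weeks old per the study. TAZG197V males carry, on their single X chromosome, a patient-derived amino acid exchange in Tafazzin, the mitochondrial enzyme that remodels the membrane lipid cardiolipin. The allele was made with CRISPR/Cas9 in C57BL/6N zygotes and edited mice were then bred to C57BL6/J, so every TAZG197V animal carries the mutation in all tissues. No animal was treated. The sources used here number the hearts within each genotype without describing each animal, so the p-values measure the spread between these samples.

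Cells take up iron mainly as transferrin, bound by the transferrin receptor Tfrc, and release it through ferroportin, encoded by Slc40a1. Iron not in use is kept in ferritin, a shell of heavy (Fth1) and light (Ftl1) chains. The iron regulatory proteins, encoded by Aco1 and Ireb2, sense iron in the cytosol and bind hairpins called iron-responsive elements. Such a hairpin near the start of an mRNA lets the protein block translation, whereas the hairpins after the stop codon of Tfrc let it protect the mRNA from decay. In mitochondria, the cysteine desulfurase Nfs1 provides sulfur, Iscu is the scaffold on which the cluster is put together, and ferredoxins such as Fdx1 pass on electrons. The heart is rich in iron-sulfur proteins because the respiratory chain depends on them.

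The iron-responsive elements of these mRNAs are shown because they tie 4 of the 9 genes together. They were located in annotated untranslated regions (GENCODE M21, GRCm38, the assembly that mm10 names) as a C, 5 bases, the loop CAGTGN and 5 bases that pair with the first 5, with G-T pairs allowed. The transcript strand was read, in DNA letters, and the capitals mark the loop. Tfrc held 4 of them in its 3′ untranslated region, on the plus strand at chr16:32631219-32631248, chr16:32631598-32631627, chr16:32631663-32631692 and chr16:32631710-32631739. Fth1 (chr19:9982732-9982761, plus strand), Ftl1 (chr7:45459778-45459807, minus strand) and Slc40a1 (chr1:45925464-45925493, minus strand) held 1 each in the 5′ untranslated region.
Tfrc hairpin A: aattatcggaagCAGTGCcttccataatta
Tfrc hairpin B: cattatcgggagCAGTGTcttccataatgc
Tfrc hairpin C: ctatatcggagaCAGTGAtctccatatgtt
Tfrc hairpin D: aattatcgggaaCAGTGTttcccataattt
Fth1 hairpin: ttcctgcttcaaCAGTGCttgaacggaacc
Ftl1 hairpin: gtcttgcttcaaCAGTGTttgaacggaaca
Slc40a1 hairpin: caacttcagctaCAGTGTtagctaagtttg
Such a hairpin stood in the 5′ untranslated region of 31 of 20916 genes (0.148%) and in the 3′ untranslated region of 129 of 21707 genes (0.594%). Ireb2, Aco1, Nfs1, Iscu and Fdx1 held none in the annotated windows, which says only that these letters are not there. Among the other iron genes considered, a match was found in the 5′ untranslated region of Alas2 and in the 3′ untranslated region of Bola3.

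Before the results, the libraries were compared. Total counts ranged from 23055689 to 36301031, and levels are given as CPM, the counts of a gene relative to the library total after TMM scaling between libraries. The edited gene Taz averaged 60.9 CPM (SD 2.36, n = 4) in WT and 47.3 CPM (SD 2.60, n = 4) in TAZG197V, which does not check the genotype labels, because the edit changes a base and does not remove the transcript. The summed level of 6 cardiomyocyte markers was 54370 to 60976 CPM in WT and 45493 to 49684 CPM in TAZG197V, so all 8 libraries were rich in heart muscle transcripts, but the genotypes did not overlap. Of these 6 markers 3 were called lower, and 4 by DESeq2 or at an unadjusted p under 0.05. The library WT 4 stood apart through blood: 6 red cell markers summed to 55072 CPM there against 227 to 1065 CPM in the other 7, and haemoglobin genes took 5.0% of its counts against 0.0213% to 0.096%. In both number 4 libraries the sum of 6 brain markers was high, at 93.7 CPM in WT 4 and 216 CPM in TAZG197V 4 against 5.56 to 10.1 CPM elsewhere. Values without these libraries are given beside the results that they move most.

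Genotypes were compared by the quasi-likelihood test of edgeR over all 15084 genes, with 2 surrogate variables that stand for variation between libraries other than genotype. A gene was called when its adjusted p was under 0.05, its fold change beyond 15% in either direction and its mean scaled count at least 50. Of the 9 genes, 3 were called: Fth1 was higher in TAZG197V hearts, and Tfrc and Slc40a1 were lower. Over all genes 33.5% were called, 18.5% higher and 15.1% lower, so 3 of 9 (33.3%) lies at the background share. The genotypes did not overlap for 1 of the 9, Fth1, against 33.2% of all genes tested. The median log2 fold change of the 9 was -0.10, beside -0.01 over all genes tested.

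**Figure D1:**
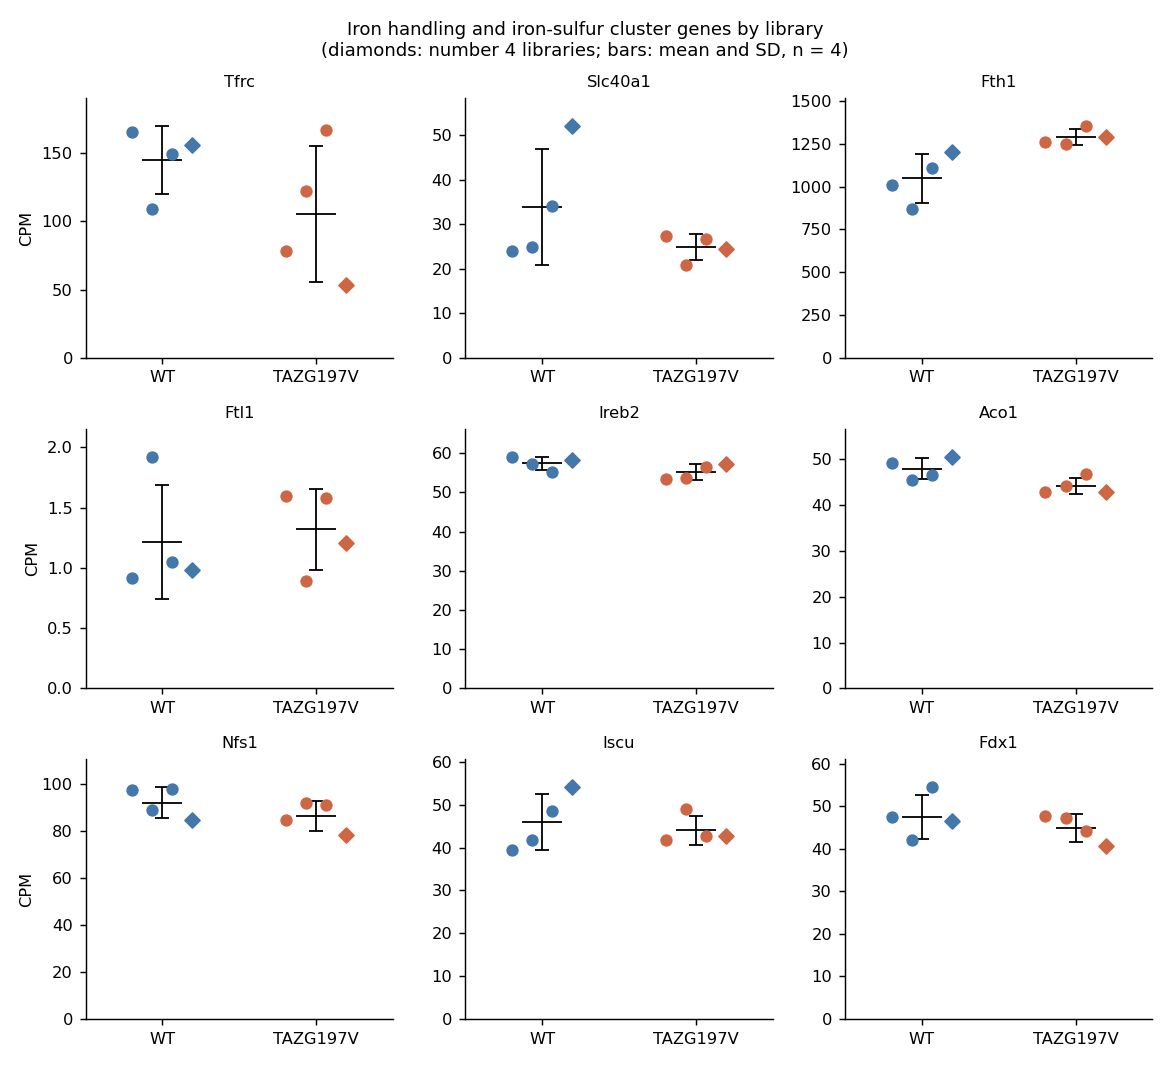
CPM of the 9 genes in each library, by genotype, with each panel's axis starting at 0. Points are libraries, diamonds the number 4 libraries, and bars the mean and SD of 4. Fth1 is the gene whose genotypes do not overlap, and Tfrc spans 53.7 to 167 CPM within TAZG197V.

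Of the genes for uptake and release, Tfrc (chromosome 16, 32608920 to 32632794, plus strand, GRCm38) is the receptor for transferrin-bound iron. In WT it was at 166, 109, 149 and 156 CPM in libraries 1 to 4. In TAZG197V it was at 78.5, 122, 167 and 53.7 CPM. The highest value of all 8 libraries, in TAZG197V 3, and the lowest, in TAZG197V 4, both belonged to the mutant group, and the genotypes overlapped. The means were 145 ± 25.0 and 105 ± 50.0 CPM (SD, n = 4 each). The fitted log2 fold change was -0.63 (SE 0.21, adjusted p = 0.0408), a 1.55-fold lower level once the surrogate variables were taken into account. Without them it was -0.46 with an adjusted p of 0.298, and the call was lost. The call also did not hold without TAZG197V 4 (-0.20, adjusted p = 0.566), without WT 4 (-0.40, adjusted p = 0.169) or without both number 4 libraries (-0.18, adjusted p = 0.55), whereas without TAZG197V 3 the log2 fold change was -0.89 (adjusted p = 0.00952). The part of the brain transcripts of TAZG197V 4 in this result was not tested.

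Slc40a1 (chromosome 1, 45908068 to 45926523, minus strand) encodes ferroportin, the only iron exporter known in mammals. Its levels were 24.1, 24.8, 34.2 and 52.1 CPM in WT and 27.4, 20.9, 26.7 and 24.4 CPM in TAZG197V. WT 4, the library with blood, held the highest value, and the lowest WT values lay within the TAZG197V range. The means were 33.8 ± 13.0 and 24.8 ± 2.92 CPM, and the log2 fold change was -0.48 (SE 0.16, adjusted p = 0.0411). Without WT 4 it was -0.15 with an adjusted p of 0.443, and only 4 of 17 other fits called it. Iron-recycling macrophages also make ferroportin, and the 8 macrophage markers summed to 234 to 282 CPM in WT and 243 to 358 CPM in TAZG197V, with 0 of the 8 called by edgeR or DESeq2 and 1 higher at an unadjusted p under 0.05. In a piece of tissue, fewer cells of a type and less RNA per cell cannot be told apart, here and for every gene below.

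The storage genes were the ferritin chains. Fth1 (chromosome 19, 9980598 to 9985098, plus strand), the heavy chain that oxidises iron for storage, was at 1012, 869, 1107 and 1201 CPM in WT. In TAZG197V it was at 1263, 1250.3, 1353 and 1288 CPM. Every TAZG197V library lay above every WT library, although the gap between WT 4 and the lowest mutant library was small. The means were 1047 ± 141 and 1289 ± 45.9 CPM, with a log2 fold change of 0.26 (SE 0.06, adjusted p = 0.0135), or 1.20-fold. Without both number 4 libraries the rise was larger, at 0.39 (adjusted p = 0.00238). Of 17 other fits 13 called it, and 4 that left out 1 library each (WT 1, WT 2, TAZG197V 2 or TAZG197V 3) gave 0.22 to 0.25 with adjusted p from 0.0568 to 0.0739.

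Ftl1 (chromosome 7, 45457944 to 45459884, minus strand), the light chain, cannot be judged from these counts. It had 22 to 70 reads per library, or 0.913, 1.92, 1.05 and 0.982 CPM in WT and 1.60, 0.891, 1.58 and 1.21 CPM in TAZG197V. Of the 50-base windows of its transcripts, 86.2% also occur in transcripts of 17 other genes, 8 of them processed pseudogenes, and 34.6% of its exon length overlaps other genes. A read that matches several genes can be left uncounted, so the level of Ftl1 may be too low and its log2 fold change of 0.28 (95% interval -0.34 to 0.89, adjusted p = 0.437) is uncertain. For Fth1 3.59% of windows were shared, all with 1 pseudogene, and for Tfrc and Slc40a1 0%.

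Neither gene for an iron regulatory protein was called. Ireb2 (chromosome 9, 54863789 to 54912530, plus strand), which is degraded when iron is plentiful, was at 59.2, 57.2, 55.3 and 58.2 CPM in WT and 53.3, 53.6, 56.5 and 57.2 CPM in TAZG197V. The 95% interval of its log2 fold change of -0.06 ran from -0.18 to 0.07 (adjusted p = 0.421). Aco1 (chromosome 4, 40143081 to 40198338, plus strand), an aconitase when it carries a cluster and an RNA-binding protein when it does not, was at 49.1, 45.5, 46.6 and 50.6 CPM in WT and 42.8, 44.2, 46.7 and 42.9 CPM in TAZG197V. Both genes overlapped between genotypes. For Aco1 the log2 fold change was -0.13, and the 95% interval of -0.27 to 0.00012 just reached 0 (adjusted p = 0.104).

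The 3 genes of cluster assembly were not called either. Nfs1 (chromosome 2, 156123639 to 156144186, minus strand) was at 97.1, 88.6, 97.8 and 84.3 CPM in WT and 84.5, 91.6, 91.1 and 78.0 CPM in TAZG197V. Iscu (chromosome 5, 113772748 to 113778288, plus strand) was at 39.4, 41.8, 48.5 and 54.1 CPM in WT and 41.7, 49.1, 42.7 and 42.7 CPM in TAZG197V. Fdx1 (chromosome 9, 51943306 to 51963556, minus strand) was at 47.4, 41.9, 54.5 and 46.4 CPM in WT and 47.6, 47.2, 44.2 and 40.6 CPM in TAZG197V. The genotypes overlapped for all 3. The 95% intervals of the log2 fold change were -0.22 to 0.03 for Nfs1, -0.30 to 0.12 for Iscu and -0.25 to 0.04 for Fdx1 (adjusted p = 0.182, 0.461 and 0.206). Iscu changed sign, to 0.05, without both number 4 libraries. Other genes held 12.9% of the windows of Nfs1 and 12.7% of those of Iscu, so their levels may be undercounted too.

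**Figure D2:**
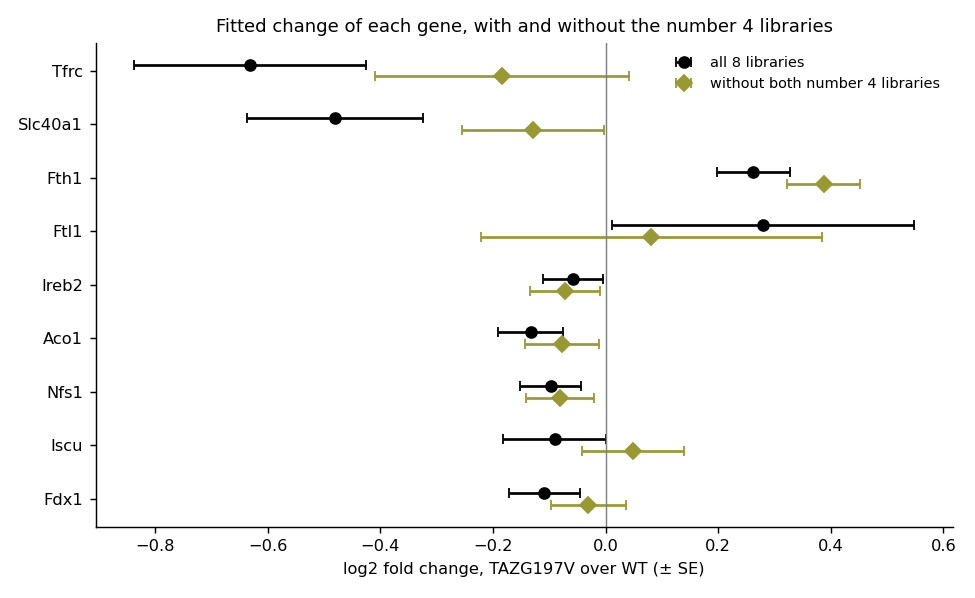
Fitted log2 fold change (TAZG197V over WT) of the 9 genes with its SE, from all 8 libraries (circles) and without both number 4 libraries (diamonds). Tfrc moves from -0.63 to -0.18 and Slc40a1 from -0.48 to -0.13, while Fth1 moves from 0.26 to 0.39.

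Levels of different genes were compared per kilobase of exon. In WT, Fth1 led with 302 ± 40.8 CPM per kilobase, followed by Nfs1 at 25.5 ± 1.82, Tfrc at 23.4 ± 4.04, Iscu at 21.1 ± 3.06, Fdx1 at 15.3 ± 1.67, Aco1 at 10.7 ± 0.51, Ireb2 at 6.06 ± 0.17, Slc40a1 at 3.76 ± 1.45 and Ftl1 at 0.91 ± 0.35 (SD, n = 4). The ranges of neighbours in this order overlapped for Nfs1 and Tfrc and for Tfrc and Iscu, in both genotypes. With these lengths, all other neighbours were separate in both. Ferritin heavy chain mRNA was thus far above every other gene of the set, and the position of Ftl1 at the end is subject to the shared sequence described above.

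For each called gene, the genes with the most similar levels over the 8 libraries were looked up among all genes with a mean scaled count of at least 50. Lair1 (Pearson r = 0.984) and Ccl24 (r = 0.956) were closest to Tfrc. Plin5 (r = 0.971) and Hcn2 (r = 0.963) were closest to Fth1, and Eya2 (r = 0.976) was close to Slc40a1. These are the extremes of a search over 12357 genes in 8 libraries that share genotype and library effects, and describe likeness only.

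The other genes of iron and iron-sulfur metabolism were grouped by role into lists of 105 genes, of which 99 were tested. Of these, 46 were called (46.5%), 27 higher (27.3%) and 19 lower (19.2%), beside 33.5%, 18.5% and 15.1% of all genes. These lists too were chosen with earlier results known, so the shares are a description. Their median log2 fold change was -0.0013. The directions differed between roles, with the median at 0.37 for cytosolic iron-sulfur assembly, 0.34 for storage and haem breakdown and 0.19 for mitochondrial assembly. It was -0.42 for uptake and transport, -0.14 for haem synthesis and -0.08 both for mitochondrial iron-sulfur proteins and for export. It was -0.01 for the control of the iron regulatory proteins and 0.06 for other iron-sulfur proteins. Without both number 4 libraries, the genes called higher and lower were 1 and 3 for uptake, 5 and 0 for storage and haem breakdown, 2 and 1 for export, 0 and 1 for the control of the regulatory proteins, 7 and 1 for mitochondrial assembly, 6 and 0 for cytosolic assembly, 1 and 4 for haem synthesis, 2 and 5 for mitochondrial iron-sulfur proteins and 5 and 0 for the others. When 1 library was left out, the lower calls went down to 2 (without WT 2) or 1 (without TAZG197V 1 or TAZG197V 2) in uptake, to 1 in mitochondrial assembly (without WT 4 or TAZG197V 4), to 0 in export (without TAZG197V 4) and to 3 in haem synthesis (without WT 2 or any 1 TAZG197V library). The higher calls in uptake went down to 0 without TAZG197V 2 and to 1 without any other library but WT 1. In other iron-sulfur proteins they went down to 2 without TAZG197V 2, and in mitochondrial iron-sulfur proteins to 1 without WT 2 or TAZG197V 2. In export they went down to 1 without WT 1, WT 2, TAZG197V 2 or TAZG197V 3, and in haem synthesis to 0 without WT 1, WT 2, WT 4, TAZG197V 1 or TAZG197V 3.

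**Figure D3:**
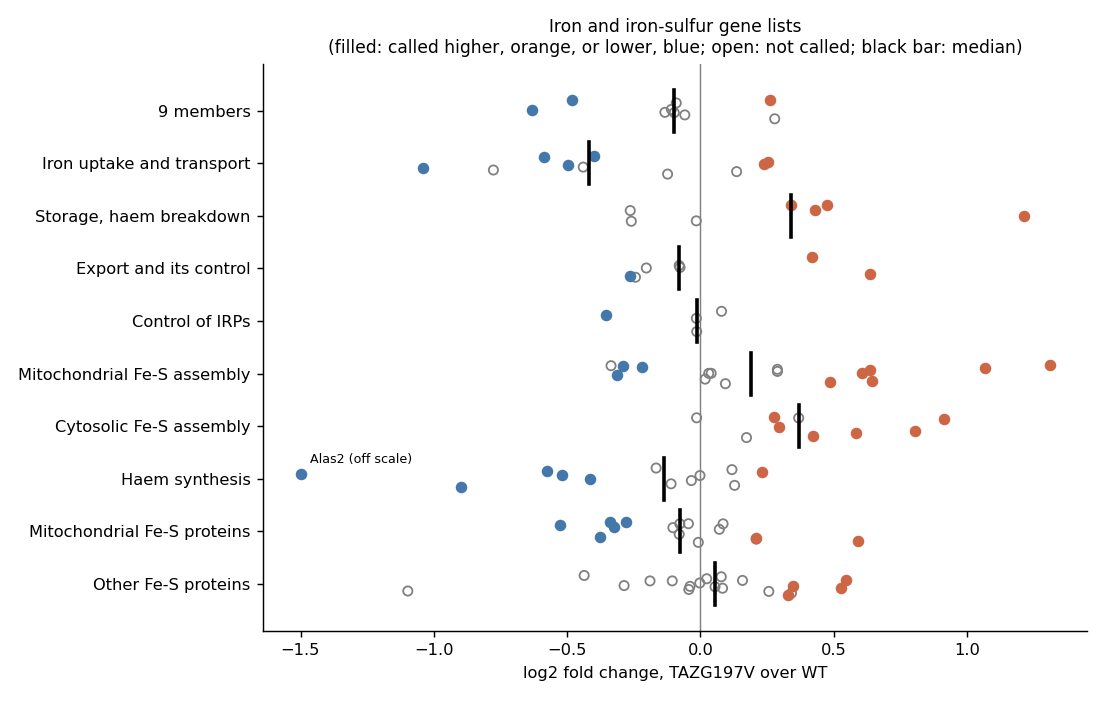
Fitted log2 fold change (TAZG197V over WT) of each tested gene, by list; filled points were called higher (orange) or lower (blue), open points were not called, and black bars are medians. The lists for cytosolic assembly and for storage and haem breakdown hold no gene called lower; Alas2 lies beyond the left edge at -3.49.

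Around the assembly genes, which did not pass the test themselves, several partners did. In the mitochondrial assembly list 6 of 16 tested genes were higher (37.5%, beside 18.5% of all genes) and 3 lower (18.8%, beside 15.1%). Hspa9, the mitochondrial chaperone that frees the cluster from Iscu, was at 833, 753, 852 and 763 CPM in WT and 2079, 2058, 2029 and 1845 CPM in TAZG197V. The means were 800.4 ± 49.6 and 2003 ± 107 CPM, the fitted rise was 1.31 on the log2 scale (SE 0.07, adjusted p = 6.17e-06), and the genotypes stood far apart. Nfu1, which carries clusters to target proteins, was at 37.4, 32.2, 37.5 and 27.2 CPM in WT and 72.4, 79.5, 67.6 and 60.8 CPM in TAZG197V (log2 fold change 1.07, SE 0.09, adjusted p = 6.28e-05). Gfer, a sulfhydryl oxidase of the intermembrane space, rose by 0.64 on the log2 scale (adjusted p = 0.000842).

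The direct partners of Nfs1, Iscu and Fdx1 did not move together. Lyrm4, the small subunit that stabilises Nfs1, was at 10.9, 11.4, 12.3 and 11.4 CPM in WT and 18.2, 19.6, 17.6 and 15.3 CPM in TAZG197V (log2 fold change 0.61, SE 0.08, adjusted p = 0.000594). Ndufab1, the acyl carrier protein of the same complex and also a subunit of complex I, was at 58.7, 53.8, 59.8 and 52.2 CPM in WT and 47.6, 42.9, 44.1 and 46.6 CPM in TAZG197V (log2 fold change -0.31, adjusted p = 0.00932). Fdxr, the reductase that feeds Fdx1, was at 8.05, 7.91, 7.30 and 8.13 CPM in WT and 12.8, 12.9, 11.2 and 11.8 CPM in TAZG197V (log2 fold change 0.64, SE 0.09, adjusted p = 0.0011). Fdx2, the other ferredoxin, had 1 to 5 reads per library and was not tested, and 94.1% of its windows were shared.

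Cytosolic assembly supplies clusters to proteins outside mitochondria. In its list, 6 of 9 genes (66.7%, beside 18.5% of all genes) were higher and 0 lower by edgeR. With an unadjusted p under 0.05, 8 were higher and 0 lower, and DESeq2 called 6 higher and 0 lower. Nubp1 and Nubp2 form the scaffold of this pathway. Nubp1 was at 5.03 ± 0.80 CPM in WT and 9.67 ± 1.09 CPM in TAZG197V (log2 fold change 0.91, adjusted p = 0.00118) and Nubp2 at 14.9 ± 1.16 and 22.5 ± 3.41 CPM (0.59, adjusted p = 0.000422). Ciao2b, of the complex that hands clusters to their targets, went from 24.9 ± 1.65 to 43.2 ± 3.66 CPM (0.81, adjusted p = 5.52e-05). Ciapin1, an electron donor of the pathway, was at 53.7 ± 9.42 and 73.9 ± 11.7 CPM (0.42, adjusted p = 0.00185) with overlapping genotypes, and its call was lost with lane as a covariate (adjusted p = 0.0571), which left 5 of the 9 genes higher. For Nubp1 36.9% of the exon length overlaps Tvp23a on the opposite strand, and the strand setting of the counting was not stated.

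**Figure D4:**
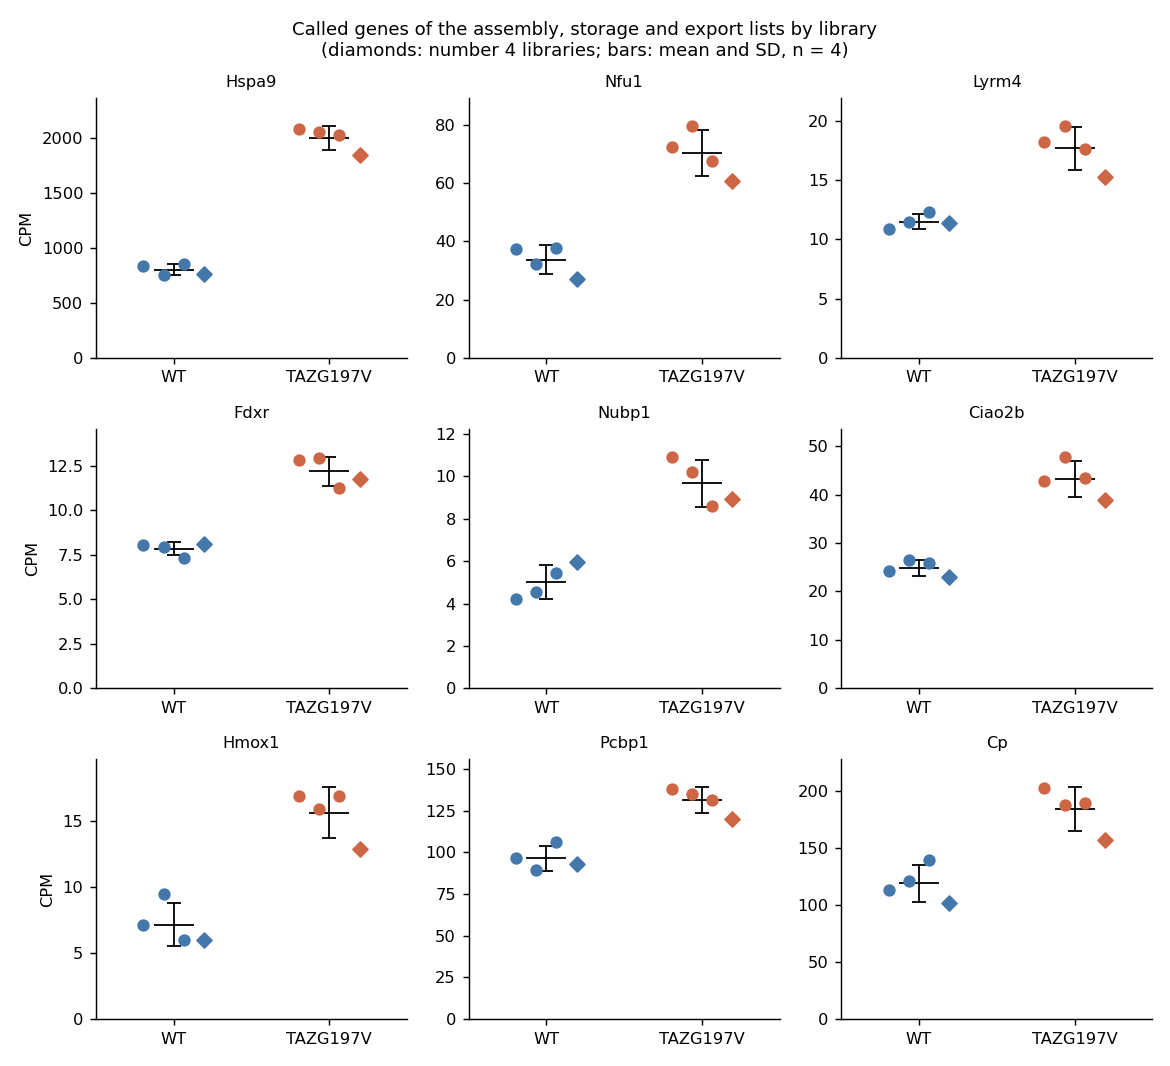
CPM in each library of 9 called genes of the assembly, storage and export lists, by genotype, with each axis starting at 0. Points are libraries, diamonds the number 4 libraries and bars the mean and SD of 4. In all 9 panels every TAZG197V library lies above every WT library.

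Among storage and haem breakdown, 4 of 7 tested genes (57.1%, beside 18.5% of all genes) were higher and 0 lower by edgeR. The same counts came from an unadjusted p under 0.05 and from DESeq2. Haem oxygenase Hmox1, the inducible enzyme that frees iron from haem, was at 7.10, 9.45, 5.98 and 5.98 CPM in WT and 16.9, 15.9, 16.9 and 12.8 CPM in TAZG197V. The rise was 1.22 on the log2 scale (SE 0.10, adjusted p = 7.24e-05), and the genotypes did not overlap. Hmox2, its constitutive counterpart, rose by 0.47 on the log2 scale (adjusted p = 0.000524), but 40.2% of its exon length overlaps Cdip1 on the other strand. Pcbp1, a chaperone that delivers iron to ferritin, was at 96.3 ± 7.28 and 131 ± 7.83 CPM (0.43, adjusted p = 0.00055), and Blvra, which reduces the biliverdin made from haem, rose by 0.34 (adjusted p = 0.00625). Ncoa4, the receptor that takes ferritin to be broken down, was at 6.70, 6.98, 6.99 and 12.6 CPM in WT and 7.56, 6.72, 8.10 and 6.09 CPM in TAZG197V and was not called (adjusted p = 0.296). The high value was in WT 4, and 39.1% of its windows were shared.

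In the uptake list, 4 of 10 tested genes were lower and 2 higher. Steap3, the reductase that acts beside Tfrc in the endosome, was at 37.1, 35.0, 37.9 and 36.3 CPM in WT and 25.0, 23.7, 27.8 and 22.1 CPM in TAZG197V. The fitted difference of -0.59 on the log2 scale (SE 0.07, adjusted p = 0.000343) came with no overlap, and it was called in all 17 other fits. Lrp1, a receptor for haem bound to hemopexin among many other ligands, went from 196 ± 25.6 to 136 ± 22.3 CPM (-0.50, adjusted p = 0.0156), and the call was lost without TAZG197V 1 or TAZG197V 2. It was highest in WT 2 and TAZG197V 3 within their genotypes, as was the sum of 5 fibroblast markers, which ran from 1087 to 1721 CPM in WT and 751 to 1082 CPM in TAZG197V with 3 of the 5 called lower. The sum of 5 endothelial markers ran from 629 to 916 CPM and from 522 to 651 CPM, with 2 of the 5 called lower. The part of these cells in the lower Lrp1 was not tested. Transferrin, listed as Trf in the annotation, was at 51.2 ± 8.46 and 38.2 ± 4.43 CPM (-0.40, adjusted p = 0.0395), with 69.4% of its windows shared with other genes and the call lost in 7 of 17 other fits. Slc11a2, which carries iron out of the endosome, was at 34.4 ± 2.54 and 32.2 ± 2.68 CPM and was not called (adjusted p = 0.175). Tfr2, the second transferrin receptor, had 0 to 4 reads per library and was not tested. The higher genes of this list, named after their values were seen, were Slc39a14 and Slc25a28. Slc39a14, a metal importer of the cell membrane, went from 69.7 ± 4.17 to 83.7 ± 3.53 CPM (0.26, adjusted p = 0.0143) without overlap, and the call was lost without TAZG197V 2. Slc25a28, a mitochondrial iron importer, ran from 20.4 to 24.8 CPM in WT and from 25.7 to 27.9 CPM in TAZG197V (0.24, adjusted p = 0.0354) without overlap, but it was called in only 6 of 17 other fits and not without both number 4 libraries (0.16, adjusted p = 0.0968).

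Slc25a37, the other mitochondrial iron importer, was at 25.8, 27.4, 30.2 and 127 CPM in WT and 24.2, 22.2, 25.1 and 21.9 CPM in TAZG197V. It was called lower (log2 fold change -1.04, adjusted p = 0.0411), and WT 4, with its red cell transcripts, held the value of 127 CPM. Without WT 4 the log2 fold change was -0.24 (adjusted p = 0.0383), and without both number 4 libraries it was -0.22 (adjusted p = 0.0626) and not called. Of 17 other fits 7 called it.

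For export and its hormonal control, 2 of 7 tested genes were higher (28.6%, beside 18.5% of all genes) and 1 lower (14.3%, beside 15.1%). Ceruloplasmin (Cp), the ferroxidase that works with ferroportin, was at 113, 121, 140.1 and 102 CPM in WT and 203, 188, 190 and 157 CPM in TAZG197V (log2 fold change 0.64, SE 0.08, adjusted p = 0.000456). The genotypes did not overlap. Hephaestin (Heph), the related ferroxidase, was at 3.71 ± 0.57 and 3.38 ± 0.63 CPM and was not called (adjusted p = 0.746). Hfe, a partner of the transferrin receptors, rose by 0.42 on the log2 scale (adjusted p = 0.00855) with overlapping genotypes. It was called in 11 of 17 other fits, with values from 0.29 (without WT 1) to 0.71 (without both number 4 libraries), and the call was lost without WT 1, WT 2, TAZG197V 2 or TAZG197V 3, with no surrogate variables and with the replicate number as a block. Hjv, a co-receptor in the signal that induces hepcidin, went from 217 ± 19.4 to 183 ± 12.5 CPM (-0.26, adjusted p = 0.00725), and the call was lost without TAZG197V 4 (adjusted p = 0.056) and with lane as a covariate (adjusted p = 0.0575).

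Of the 4 genes that control the iron regulatory proteins 1 was called, lower (25.0%, beside 15.1% of all genes). Fbxl5, the iron-sensing subunit of the ligase that degrades the product of Ireb2, was at 60.8, 59.2, 55.3 and 61.9 CPM in WT and 51.8, 43.3, 45.4 and 45.1 CPM in TAZG197V. The fitted difference was -0.35 on the log2 scale (SE 0.08, adjusted p = 0.00729), the genotypes did not overlap, and all 17 other fits called it.

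In haem synthesis 5 of 12 genes were lower (41.7%, beside 15.1% of all genes) and 1 higher (8.33%, beside 18.5%). Alas1, the enzyme of the first step in most tissues, was at 202 ± 33.7 CPM in WT and 146 ± 13.7 CPM in TAZG197V (log2 fold change -0.52, adjusted p = 0.000245) with overlapping genotypes. It was -0.35 without TAZG197V 4 (adjusted p = 0.055), where the call was lost, and -0.32 without both number 4 libraries (adjusted p = 0.00586). Alad, of the next step, went from 35.7 ± 3.95 to 24.4 ± 0.69 CPM (-0.58, adjusted p = 0.000491) without overlap. The values of the next 2 genes were far higher in WT 4 than in any other library. The erythroid gene Alas2 was at 42.7, 22.1, 58.3 and 3547 CPM in WT and 15.5, 33.9, 23.7 and 15.7 CPM in TAZG197V. The log2 fold change of -3.49 (adjusted p = 0.0469) was -0.82 without WT 4 (adjusted p = 0.0684), so the call was lost. It was also lost without any other 1 library but WT 3, and 5 of 17 other fits called it. Ferrochelatase (Fech), which inserts the iron, was at 186, 167, 174 and 532 CPM in WT and 144, 141, 143 and 129 CPM in TAZG197V, with -0.90 (adjusted p = 0.0204) in all libraries and -0.32 (adjusted p = 0.00341) without WT 4. Its call was lost in 9 of 17 other fits, among them those without WT 2, TAZG197V 1, TAZG197V 2 or TAZG197V 3.

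**Figure D5:**
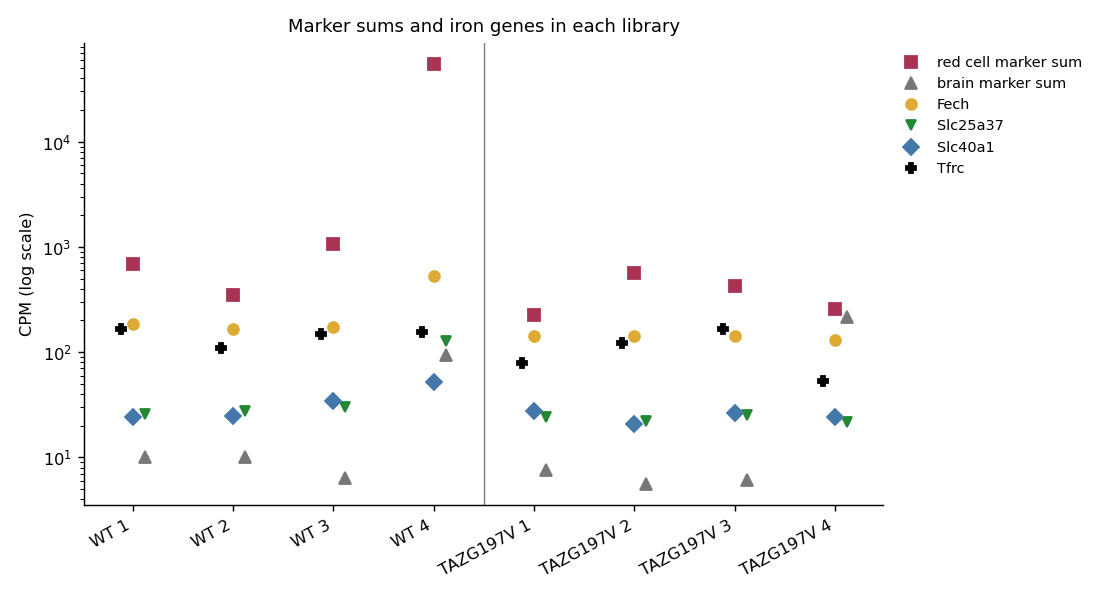
CPM on a log axis of the summed red cell markers, the summed brain markers and 4 iron genes in each library, with points shifted sideways where they would overlap. WT 4 is high for red cell markers, Fech, Slc25a37 and Slc40a1; TAZG197V 4 is high for brain markers and lowest for Tfrc.

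Proteins that carry iron-sulfur clusters in mitochondria were called lower in 5 of 15 cases (33.3%, beside 15.1% of all genes) and higher in 2 (13.3%, beside 18.5%). Etfdh, which passes electrons from fatty acid oxidation to ubiquinone, went from 787 ± 58.9 to 554 ± 11.2 CPM (log2 fold change -0.52, adjusted p = 0.000525). Uqcrfs1, the Rieske protein of complex III, went from 804 ± 98.0 to 621 ± 25.2 CPM (-0.38, adjusted p = 0.00754), and Ndufs7 of complex I from 313 ± 36.5 to 248 ± 12.7 CPM (-0.34, adjusted p = 0.01). The cardiomyocyte marker sum was also lower in TAZG197V, without overlap, and its part in these values and in those of the haem genes was not tested. Cisd3, a small mitochondrial cluster protein, rose by 0.59 on the log2 scale from 19.7 ± 0.98 CPM in WT (adjusted p = 0.000435). Of the 19 iron-sulfur proteins outside mitochondria 4 were higher and 0 lower by edgeR (5 and 0 at an unadjusted p under 0.05, 2 and 0 by DESeq2). The share higher, 21.1%, was near the 18.5% of all genes. The share called in either direction, also 21.1%, lay below the 33.5% of all genes. The 4 were the ribosome recycling factor Abce1 (80.0 ± 3.49 and 117 ± 8.79 CPM, 0.55, adjusted p = 0.000162), the tRNA-modifying Elp3 (0.33, adjusted p = 0.00547), the DNA glycosylase Nthl1 (0.53, adjusted p = 0.017) and Dph1 (0.35, adjusted p = 0.0163), which makes diphthamide and shares 32.3% of its windows. Without TAZG197V 2 the calls of Nthl1 and Dph1 were lost, and that of Dph1 also without WT 1 or TAZG197V 1.

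Read by their hairpins, the mRNAs did not share a direction. Of those with a hairpin in the 5′ untranslated region, Fth1 was called higher, Slc40a1 and Alas2 were called lower here and in 4 and 5 of 17 other fits, none of them without WT 4, and Ftl1 was not called. Tfrc, with its hairpins in the 3′ untranslated region, was called lower here and in 4 of 17 other fits. Bola3, whose 3′ match has no known role here, was lower (99.3 ± 12.8 and 82.9 ± 7.26 CPM, log2 fold change -0.29, adjusted p = 0.00483). Its call was lost without WT 4 (-0.26, adjusted p = 0.0573) or TAZG197V 4 (-0.21, adjusted p = 0.149), and without both it was -0.20 (adjusted p = 0.0311), under the fold limit. Counts of mRNA do not show translation, through which the 5′ hairpins act.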

How the data were processed

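Total RNA of heart pieces was sequenced as single-end reads. Per the study's methods and the submitters' processing notes, the authors used bcl2fastq 2.20.0, FastQC 0.11.9, STAR 2.7.3a on mm10 and featureCounts of Subread 2.0.0. Each deposited file gives raw counts, 1 whole number for each Ensembl gene, without normalisation by the authors. Strand setting, annotation release and treatment of multi-mapping reads are not given in the sources used here. The 92 spike-in rows summed to 0 counts and were left out.

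The test was run with edgeR 4.0.16 under R 4.3.3: filterByExpr, TMM scaling, 2 surrogate variables from svaseq (sva 3.50.0, genotype protected, scaled counts, seed 1), and the two-sided quasi-likelihood F-test with Benjamini-Hochberg adjustment over 15084 genes. SEs are the log2 fold change over the square root of F, and 95% intervals use the test's degrees of freedom. The procedure was tested on simulated counts: for this comparison, with no library effect and 14962 genes, 72.9% of genes changed by 0.5 and 98.9% of those changed by 1 on the log2 scale were recovered, with 7 unchanged genes called. With an effect shared by the number 4 libraries, 75.7% and 100% were recovered, with 7 unchanged genes called. Those simulated fits used 1 surrogate variable, changed 107 and 93 genes by these sizes, and held no library with blood like WT 4. They therefore do not bear on calls that depend on the number 4 libraries.

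Alternatives were DESeq2 1.42.0, its size factors, no filter, other covariates (fewer or no surrogate variables, lane, replicate number), other limits and omission of libraries. Estimating surrogate variables from unscaled counts was added after seeing the data. Lanes 7 and 8 each held 2 libraries per genotype, so lane was a covariate. Deviations of same-numbered libraries correlated at 0.277, 0.0436, 0.28 and, for number 4, 0.416. Differently numbered libraries ranged from -0.464 to 0.317, which overlaps these values except that of number 4. The sources used here do not describe the number as a pairing, so it was used only as an alternative block. No library repeated another: within a genotype, the lowest chi-square statistic per gene was 8.43.

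Positions, exon lengths and transcripts came from GENCODE M21 on GRCm38. Windows of 50 bases were compared with all other genes' transcripts on both strands. The members and lists were chosen with earlier results of these data known. Named are the 9 members, their partners and the genes with known hairpins, up to 4 called genes per list with the largest change, the 2 genes most like each called member, and Taz. A few genes that meet this rule are not reported here. Bola3 was named after its hairpin was found, and Slc39a14 and Slc25a28 after their values were seen. Slc11a2 held no match in its annotated regions. Marker lists also covered fibroblast, endothelial and liver genes.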

Additional observations from a re-analysis of the deposited data

Results flagged for a closer look

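A library was singled out when its gap to the nearest of the other 3 libraries of its genotype took up more of that genotype's range than Dixon's 95% critical value for 4 samples allows. Of 110 sets of 4 libraries examined, over the named genes and the marker sums, 14 passed, and chance alone flags about 1 set in 20.

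Of the 9 genes, Ftl1 was high in WT 2 (ratio 0.866), with 1.92 CPM against 0.913 to 1.05 CPM, and Iscu was high in TAZG197V 2 (0.858), with 49.1 CPM against 41.7 to 42.7 CPM. In WT 4 the ratio was 0.957 for Slc25a37, 0.99 for Alas2, 0.947 for Fech and 0.95 for Ncoa4, all high, beside 0.987 for the red cell marker sum. Fech was low in TAZG197V 4 (0.837), with 129 CPM against 141 to 144 CPM. Etfdh was high in TAZG197V 3 (0.943), with 571 CPM against 547 to 549 CPM. Brain marker sums were high in WT 4 (0.957) and TAZG197V 4 (0.99). The macrophage marker sum was high in TAZG197V 3 (0.836), with 358 CPM against 243 to 262 CPM, the library with the highest Tfrc. The fibroblast marker sum was high in WT 2 (0.884), with 1721 CPM against 1087 to 1160.3 CPM, and the endothelial marker sum in WT 3 (0.87), with 916 CPM against 629 to 666 CPM.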

How the results depend on the processing

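Of the 9 genes 3 were called. The count was 1 with a fold limit of 1.5 (Tfrc), and 1 (Fth1) with no filter on low counts, no surrogate variables, 1 surrogate variable, lane as covariate, the replicate number as a block or without both number 4 libraries. It was 0 to 2 when 1 library was left out, with 0 called without WT 2 or without TAZG197V 2. A fold limit of 1.5 also lowered the calls over all genes from 5060 to 1843 and over the iron lists from 46 to 15. The fit with the replicate number as a block gave 4272 calls over all genes and 38 over the lists. In these other settings, the counts over all genes (3675 to 5762) and over the lists (34 to 46) stayed within 1.5 times the main count. Some small differences changed sign. Iscu was at 0.01 without the filter, 0.05 without both number 4 libraries and -0.19 to 0.04 when 1 library was left out, above 0 without WT 4 (0.04) or TAZG197V 4 (0.03). Ncoa4 was at 0.11 without both and -0.38 to 0.08 with 1 left out, above 0 without WT 4 (0.06) or TAZG197V 4 (0.08). Ftl1 ranged from -0.0032 (without WT 4) to 0.52 and Heph from -0.20 to 0.01 (without TAZG197V 1 or 2). None of these 4 was called in any fit. The causes were not tested. Low counts limit Ftl1 (22 to 70 reads per library), Fdx2 (1 to 5) and Tfr2 (0 to 4).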
